A study of Homo sapiens with 12 samples.

Results

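The mitochondrially encoded genes were the 37 lines of the deposited count table whose gene name starts with MT-, out of 40591 lines with a gene name. They were 13 protein-coding (mRNA) genes, 2 ribosomal RNA (rRNA) genes and 22 transfer RNA (tRNA) genes. Poly(A) RNA had been sequenced from ARPE-19, an established human line derived from retinal pigment epithelium (RPE), in 12 libraries. The groups WT, GFP, GSTA4 and OSK held 3 libraries each. Per the labels, the lines were stable and an open reading frame (ORF) had been expressed for 4 days. WT was read as unmodified ARPE-19, GFP as the line carrying a fluorescent reporter, GSTA4 as the line carrying glutathione S-transferase alpha 4, an enzyme that clears lipid peroxidation products, and OSK as the line carrying the reprogramming factors POU5F1 (OCT4), SOX2 and KLF4. All groups shared the ARPE-19 background, and the GSTA4 and OSK comparisons shared the same GFP libraries as control. The sources used here do not give the promoter of the ORF, how many stable lines stood behind each group or how the WT cells were cultured, so p-values measure only the spread between these libraries.

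Human mitochondrial DNA is a small circle that is copied and transcribed inside the organelle, apart from the nucleus. Its mRNAs encode core membrane subunits of the respiratory chain: MT-ND1 to MT-ND6 with MT-ND4L belong to complex I, MT-CYB to complex III, MT-CO1 to MT-CO3 to complex IV, and MT-ATP6 and MT-ATP8 to complex V, the ATP synthase. Both strands are transcribed into long precursors that are cut at the tRNAs lying between the mRNAs and rRNAs. Nuclear genes supply the RNA polymerase, the processing enzymes and all other respiratory subunits. RPE cells rely on oxidative metabolism to serve the photoreceptors above them.

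Because the libraries were selected for poly(A) tails, the 3′ ends of these genes bear on what was counted. Human mitochondrial mRNAs often end inside their stop codon, which the tail then completes. All 37 genes matched a gene of GENCODE 29 (GRCh38), and the sequences below are from its transcripts, 5′ to 3′ on the strand of the gene. Of the 13 mRNA genes, 6 ended in a partial stop codon of 1 or 2 letters (MT-ND1, MT-ND2, MT-CO3, MT-ND3, MT-ND4 and MT-CYB) and 7 in a whole one. These are the ends of the annotated genes, and the 3′ ends of the mRNAs, which can lie elsewhere, were not measured. The last 30 bases of the gene are shown for 4 mRNA genes that the results turn on, with the letters of the stop codon in capitals. They are MT-ND1 (chrM:4233-4262, plus strand), MT-CO1 (chrM:7416-7445, plus strand), MT-CYB (chrM:15858-15887, plus strand) and MT-ND6 (chrM:14149-14178, minus strand).
MT-ND1: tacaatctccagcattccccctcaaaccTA
MT-CO1: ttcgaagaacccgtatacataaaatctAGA
MT-CYB: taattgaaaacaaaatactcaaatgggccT
MT-ND6: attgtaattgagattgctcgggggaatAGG

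Neighbouring mRNA genes overlap in 3 places, and reads in the overlap could come from either gene. MT-ATP8 and MT-ATP6 share 46 bases (chrM:8527-8572, plus strand), shown with the start codon of MT-ATP6 in capitals. MT-ND4L and MT-ND4 share 7 bases, shown in capitals at the end of MT-ND4L (chrM:10737-10766, plus strand). The genes of each of these pairs are carried on 1 RNA. MT-ATP6 and MT-CO3 share 1 base. Reads that reach from 1 gene of a pair into the other are open to the same doubt, so the counts of these 5 genes are uncertain beyond the shared bases. How overlaps were counted was not given in the sources used here.
MT-ATP8/MT-ATP6: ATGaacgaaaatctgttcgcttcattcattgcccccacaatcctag
MT-ND4L/MT-ND4: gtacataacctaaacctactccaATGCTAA

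Libraries held between 12526826 and 16940870 reads on named lines. The ORF genes followed the labels: GSTA4 was counted at 396 to 430 CPM in the GSTA4 libraries and at most 22.5 CPM elsewhere, and POU5F1, SOX2 and KLF4 were at 622 CPM or more in OSK and at 2.67 CPM or less in the other groups. CPM are counts per 1000000 after TMM scaling. Of 10 RPE markers, 8 passed 1 CPM in some library, among them PMEL and MITF, while RPE65 and TTR stayed under 0.64 CPM in every library. Summed RPE markers were higher in GFP (928 to 1102 CPM) than in GSTA4 (539 to 643 CPM) and OSK (533 to 549 CPM), and were 601 to 784 CPM in WT. The 8 fibroblast or mesenchymal markers, of which 3 passed 1 CPM somewhere and LUM was at 0, summed to 708 to 775 CPM in GFP, 528 to 557 in GSTA4 and 337 to 396 in OSK, with 765 to 786 in WT. The 4 epithelial markers summed to 1101 to 1257 CPM in GFP, 954 to 995 in GSTA4 and 697 to 789 in OSK, with 1507 to 1970 in WT. The 4 leukocyte markers summed to at most 1.06 CPM. The 4 endothelial markers, nearly all KDR, summed to 58.2 to 72.4 CPM in GFP, 36.1 to 38.6 in GSTA4, 23.5 to 26.5 in OSK and 70.9 to 94.3 in WT. Replication histone genes, whose mRNAs have no poly(A) tail, held 39.4 to 48.8 reads per 1000000 (RPM) in GFP, 62.6 to 87.8 in GSTA4, 88.0 to 109 in OSK and 87.7 to 184 in WT. Lines of miscellaneous RNA held 126 to 287 RPM in GFP, 89.7 to 98.1 in GSTA4, 89.8 to 110 in OSK and 132 to 224 in WT. Small nuclear RNA lines held 28.8 to 86.8 RPM in GFP, with the highest value in GFP replicate 1, 29.4 to 30.2 in GSTA4, 23.0 to 26.7 in OSK and at most 35.9 in WT. The part of these differences in the results was not tested. GFP replicate 1 stood apart, with reads on 27349 genes against 19488 to 22073 in the other libraries, and counts of calls against GFP are also given without it.

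The 37 genes took the largest share of reads in GSTA4. They held 6.06%, 5.99% and 6.01% of reads on named lines in the WT libraries, 6.37%, 6.54% and 6.05% in GFP, 7.55%, 7.82% and 7.82% in GSTA4, and 6.84%, 6.89% and 6.81% in OSK. Every GSTA4 library lay above every OSK library, every OSK library lay above every GFP and WT library, and GFP and WT overlapped. The means of WT, GFP, GSTA4 and OSK were 6.02% ± 0.0366 (SD, n = 3), 6.32% ± 0.248, 7.73% ± 0.160 and 6.85% ± 0.0427, so that GSTA4 stood 1.42 percentage points above GFP and OSK 0.531 points above it. In bulk RNA, a change in the number of cells of a kind cannot be told apart from one in RNA per cell, nor more mitochondrial RNA from less RNA of the nucleus.

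The classes of RNA did not follow 1 order. In WT, GFP, GSTA4 and OSK the 13 mRNAs held 5.42% ± 0.0572, 5.63% ± 0.222, 6.85% ± 0.119 and 6.17% ± 0.0418 of reads, the order of the total. The 2 rRNAs held 0.583% ± 0.0211, 0.672% ± 0.0267, 0.865% ± 0.0397 and 0.664% ± 0.0234 in the same groups. Here OSK overlapped GFP, WT was below both, and GSTA4 was above all other libraries. The 22 tRNA lines held 175 ± 1.61, 146 ± 3.36, 193 ± 11.6 and 166 ± 3.57 RPM in the same order of groups. GFP was lowest for the tRNAs and WT second highest, and no group overlapped another. The genes of the plus strand together held 6.07% ± 0.235 in GFP and 7.48% ± 0.148 in GSTA4. The 9 genes on the minus strand (MT-ND6 and 8 tRNAs), whose sum is mostly MT-ND6, held 0.243% ± 0.0135 and 0.252% ± 0.0113 and overlapped between all groups. By gene, 12 of 20 tested genes of the plus strand and 3 of 6 of the minus strand rose in GSTA4 against GFP, where 14.7% of all genes rose. The 3 were MT-TN, MT-TC and MT-TY, which lie next to each other. The kit named in the labels is not described as marking strand, so reads of a gene and of an RNA antisense to it cannot be told apart.

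**Figure D1:**
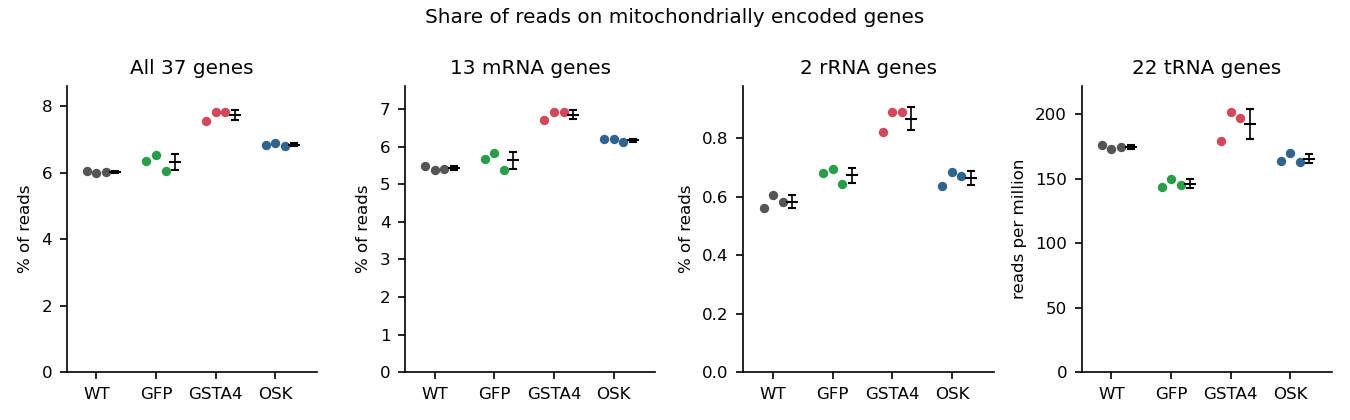
Share of reads on named lines that fell on mitochondrially encoded genes, in percent for all 37 genes, the mRNAs and the rRNAs and in reads per 1000000 for the tRNAs; each point is a library, and the bar beside each group is its mean with the SD. GSTA4 libraries lie highest in every panel, at 7.55% to 7.82% for all genes, and the tRNA panel is the one in which GFP lies below WT.

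Levels per kilobase were compared among the 13 mRNAs and 2 rRNAs, and differed more between genes than between groups. Over the 12 libraries, MT-CO1, the catalytic subunit of complex IV, was highest at a mean of 11520 CPM per kilobase, followed by MT-ATP6, the proton channel subunit of the ATP synthase, at 8021. Both ranks held in all 12 libraries. MT-CO3 (5948 CPM per kilobase) stood above MT-CYB (5563) in 9 of 12 libraries, and MT-CO2 (5241) above MT-ND4 (5054) in 8 of 12. The order of the means in both pairs changed with the group. MT-CO3 and MT-CYB were at 6962 ± 92.8 and 6055 ± 76.7 in GSTA4, but at 4997 ± 205 and 5111 ± 107 in WT. MT-CO2 and MT-ND4 were at 5723 ± 161 and 5119 ± 156 in OSK, but at 4609 ± 170 and 4770 ± 220 in GFP. MT-ND6 (4472), MT-RNR2 (4092) and MT-ND5 (3482) came next, though reads antisense to MT-ND6 cannot be told from its own. MT-ND3 (2606), MT-ND1 (2601) and MT-ND2 (2499) had similar means over the 12 libraries. MT-ND3 was above MT-ND1 in 6 of 12 libraries and MT-ND1 above MT-ND2 in 7 of 12. Their order changed with the group: MT-ND1, MT-ND3 and MT-ND2 were at 3256 ± 146, 2805 ± 127 and 2721 ± 86.2 in GSTA4. In WT they were at 2170 ± 72.6, 2538 ± 155 and 2348 ± 75.7. MT-ND4L (2225), MT-RNR1 (607) and MT-ATP8 (508) were lowest of these 15 genes. The overlapping partners were thus counted far apart per length, MT-ATP8 against MT-ATP6 most of all, on a poly(A) selected scale that does not measure all RNA of a gene. The part of reads that touch both genes of a pair in these distances was not tested.

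Of the 37 genes, 26 passed the filter on low counts: all 13 mRNAs, both rRNAs and 11 tRNAs. The other 11 tRNAs (MT-TF, MT-TV, MT-TI, MT-TQ, MT-TM, MT-TW, MT-TA, MT-TS1, MT-TK, MT-TS2 and MT-TT) had 64 reads or fewer over the 12 libraries together, down to 1 read for MT-TQ, and were not tested. A library with 0 reads, which allows up to 3 reads or 0.177 to 0.24 CPM by counting error alone, occurred for 8 of these tRNAs. With edgeR's quasi-likelihood test and Benjamini-Hochberg adjustment over 15179 genes, 19 of the 26 differed somewhere among the 4 groups: all 13 mRNAs, both rRNAs and the tRNAs MT-TN, MT-TC, MT-TY and MT-TP. The same F test called 66.9% of all genes, so a difference somewhere was common in these lines.

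In the GSTA4 line, 15 of the 26 tested genes rose against GFP and none fell, where 14.7% of all tested genes rose and 14.6% fell. The rises were 10 of 13 mRNAs, both rRNAs and 3 of 11 tRNAs, relative to all RNA; on a scale of mitochondrial mRNA reads alone, those of MT-CYB, MT-ND2, MT-ND3, MT-ND4 and MT-ATP6 turned below 0. The median log2 fold change was 0.23 over the 26 genes and 0.01 over all genes. Without GFP replicate 1 the count was again 15, where 10.9% of all genes rose. Libraries did not overlap between the groups for 17 of the 26, against 42.3% of all genes.

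The complex I mRNAs rose unevenly in GSTA4. MT-ND1 was at 2177, 2333 and 2297 CPM in GFP and at 2954, 3170 and 3214 CPM in GSTA4, with 1997 to 2130 in WT and 2445 to 2516 in OSK. Every GSTA4 library was above every other library. The rise over GFP was 37.2% (log2 fold change 0.46 ± 0.06 SE, adjusted p = 5.1e-06). MT-ND4L, which shares its RNA with MT-ND4, was at 499, 551 and 566 CPM in GFP, 707, 761 and 778 in GSTA4, 734, 679 and 642 in OSK and 596, 750 and 669 in WT. GFP was the low group for this gene, below every library of the other groups. MT-ND4L rose by 0.48 ± 0.08 on the log2 scale (adjusted p = 9.02e-05), while its partner MT-ND4 rose by 0.22 ± 0.06 (adjusted p = 0.00899). MT-ND3 and MT-ND2 rose by 0.26 and 0.20. The rises of MT-ND4L and MT-ND3 were not called with WT as the control (log2 0.16 and 0.14).

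The largest mRNA gene of complex I and the only mRNA on the minus strand did not pass the test in GSTA4. MT-ND5 was at 5470, 5748 and 5881 CPM in GFP and at 6094, 6437 and 6735 in GSTA4, without overlap, with a log2 difference of 0.17 ± 0.07 (adjusted p = 0.0557). MT-ND6 was at 2218, 2393 and 2178 CPM in GFP and 2181, 2372 and 2388 in GSTA4. Those groups overlapped almost fully, at a log2 difference of 0.03 with an interval from -0.10 to 0.17. The adjusted p of MT-ND5 ran from 0.012 to 0.195 over the alternatives with GFP as the control and passed the threshold with DESeq2 (0.0204), while MT-ND6 passed under none of those that kept all RNA as the reference.

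The mRNAs of complexes III and IV rose in GSTA4 as a group of 4. MT-CO1 was at 15430, 17220 and 16010 CPM in GFP and at 20410, 21360 and 21270 in GSTA4, with 14750 to 15600 in WT. The GSTA4 libraries were the highest of all, and the rise over GFP was 29.5% (log2 0.37 ± 0.06, adjusted p = 0.000134). MT-CO3 rose by 0.36 ± 0.06 (adjusted p = 8.66e-05) and MT-CO2 by 0.33 ± 0.06 (adjusted p = 0.000199). MT-CYB, the only mitochondrially encoded subunit of complex III, was at 5766, 5861 and 5585 CPM in GFP and at 7004, 6888 and 6833 in GSTA4, a rise of 20.4% (adjusted p = 0.00126). For complex V, MT-ATP6 rose by 17.6% (log2 0.23 ± 0.06, adjusted p = 0.00665), while MT-ATP8 differed by 0.17 ± 0.07 and missed the threshold (adjusted p = 0.0652).

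Counts of both rRNAs, the RNA parts of the mitochondrial ribosome, rose in GSTA4. The libraries were poly(A) selected, so these counts do not measure all rRNA of the ribosome. MT-RNR2, the large subunit rRNA, was at 5932, 6274 and 6031 CPM in GFP, 7423, 8154 and 8142 in GSTA4, 5996, 6424 and 6331 in OSK and 4973, 5513 and 5367 in WT. GSTA4 was above all other groups, and OSK overlapped GFP. The rise over GFP was 30.1% (log2 0.38 ± 0.06, adjusted p = 0.00012). MT-RNR1, the small subunit rRNA, rose by 0.30 ± 0.08 (adjusted p = 0.00489).

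**Figure D2:**
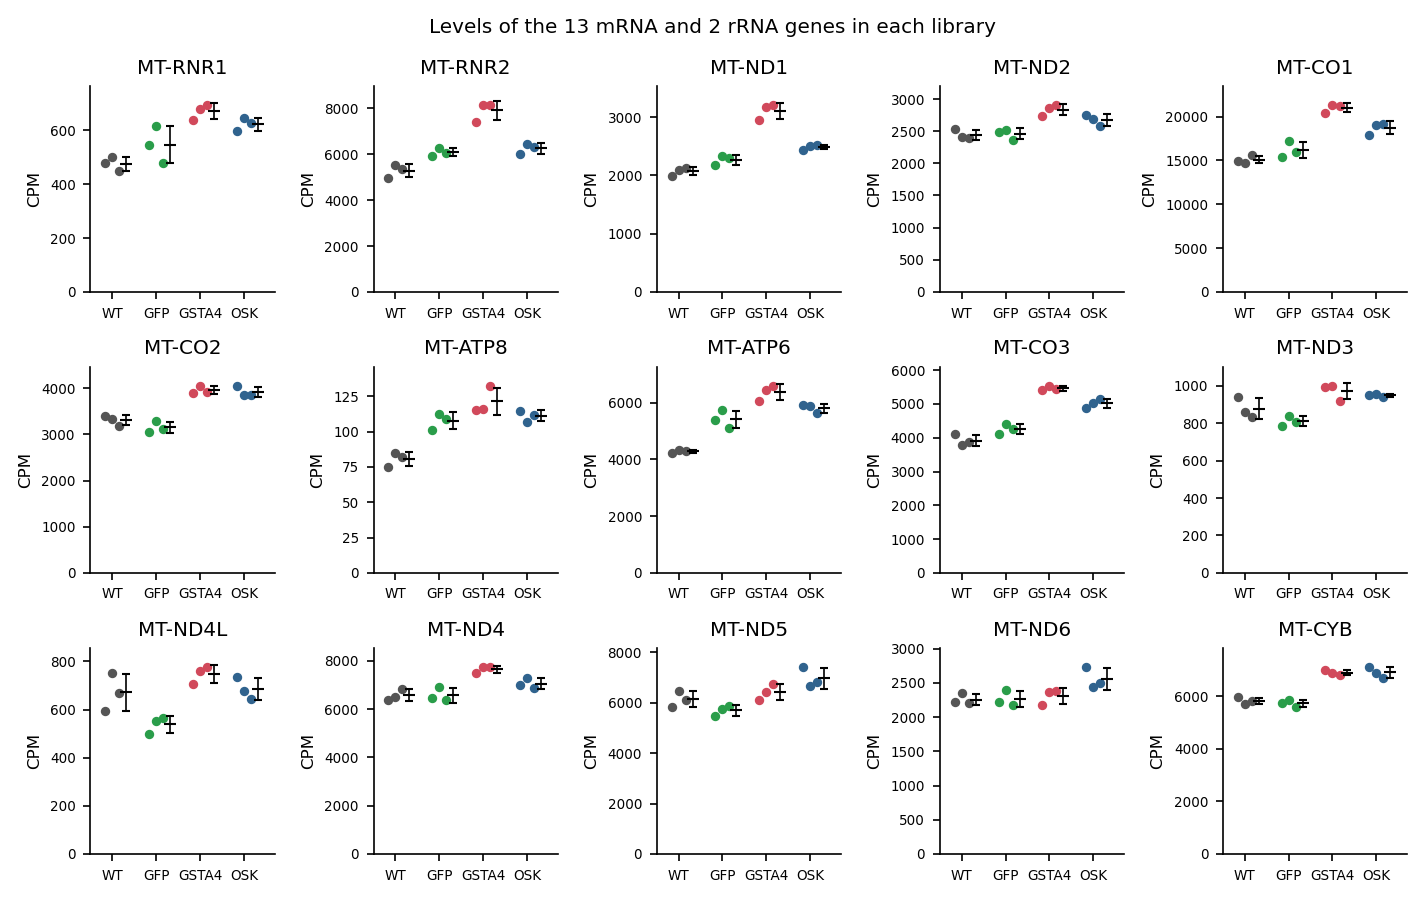
Level of each mitochondrial mRNA and rRNA gene in CPM after TMM scaling, in order along mitochondrial DNA; points are libraries, and the bar beside each group is the mean with the SD. GSTA4 lies apart from GFP for MT-ND1 and MT-CO1, WT, GFP and GSTA4 overlap for MT-ND6, and WT lies below all other groups for MT-ATP6 and MT-ATP8.

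In the OSK line, 11 of the 26 tested genes rose against GFP and none fell, where 23.1% of all tested genes rose and 22.8% fell. They were 8 mRNAs, MT-RNR1, MT-TN and MT-TP, relative to all RNA; on a scale of mitochondrial mRNA reads alone, MT-ND6 and MT-RNR1 turned below 0. The median was 0.23 over the 26 genes and -0.02 over all genes, and libraries did not overlap for 13 of the 26, against 54.7% of all genes. Without GFP replicate 1 the count was 8, where 20.6% of all genes rose, with MT-RNR1 (adjusted p = 0.0775), MT-TN (0.185) and MT-ND6 (0.0525) no longer called. These 3 calls were also lost without other libraries: MT-RNR1 without GFP replicate 3 (0.224), GSTA4 replicate 2 (0.0528) or 3 (0.0504), or OSK replicate 2 (0.135) or 3 (0.085), MT-TN without GFP replicate 2 (0.069), GSTA4 replicate 3 (0.051), or OSK replicate 2 (0.183) or 3 (0.105), and MT-ND6 without GFP replicate 3 (0.0711) or OSK replicate 1 (0.121). The call of MT-TP was lost without OSK replicate 1 (0.068). With scaling by library size alone it was 7, and 40.0% of all calls in that comparison were rises against 50.4% in the main test.

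All 4 mRNAs of complexes III and IV rose in OSK. MT-CO2, which carries the copper site that takes electrons from cytochrome c, was at 3063, 3283 and 3111 CPM in GFP and at 4041, 3851 and 3850 in OSK. No library overlapped, and the rise was 24.2% (log2 0.31 ± 0.06, adjusted p = 0.000167). MT-CYB rose by 0.27 ± 0.06 (adjusted p = 0.000636), MT-CO3 by 0.24 ± 0.06 (adjusted p = 0.00219) and MT-CO1 by 0.21 ± 0.06 (adjusted p = 0.0112). In complex I, 4 of 7 mRNAs rose. MT-ND5 was at 7435, 6671 and 6813 CPM in OSK, above every GFP and WT library and overlapping GSTA4, and its rise over GFP was 22.3% (adjusted p = 0.00113). MT-ND4L rose by 0.35 ± 0.08 (adjusted p = 0.000999) and MT-ND3 by 0.23 ± 0.06 (adjusted p = 0.00372), and neither was called with WT as the control (log2 0.03 and 0.11). MT-ND6 rose by 0.18 ± 0.06 (adjusted p = 0.0297). MT-ND1 (0.13), MT-ND2 (0.12) and MT-ND4 (0.10) did not pass, nor did MT-ATP6 (0.10), MT-ATP8 (0.05) or MT-RNR2 (0.04, adjusted p = 0.639).

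**Figure D3:**
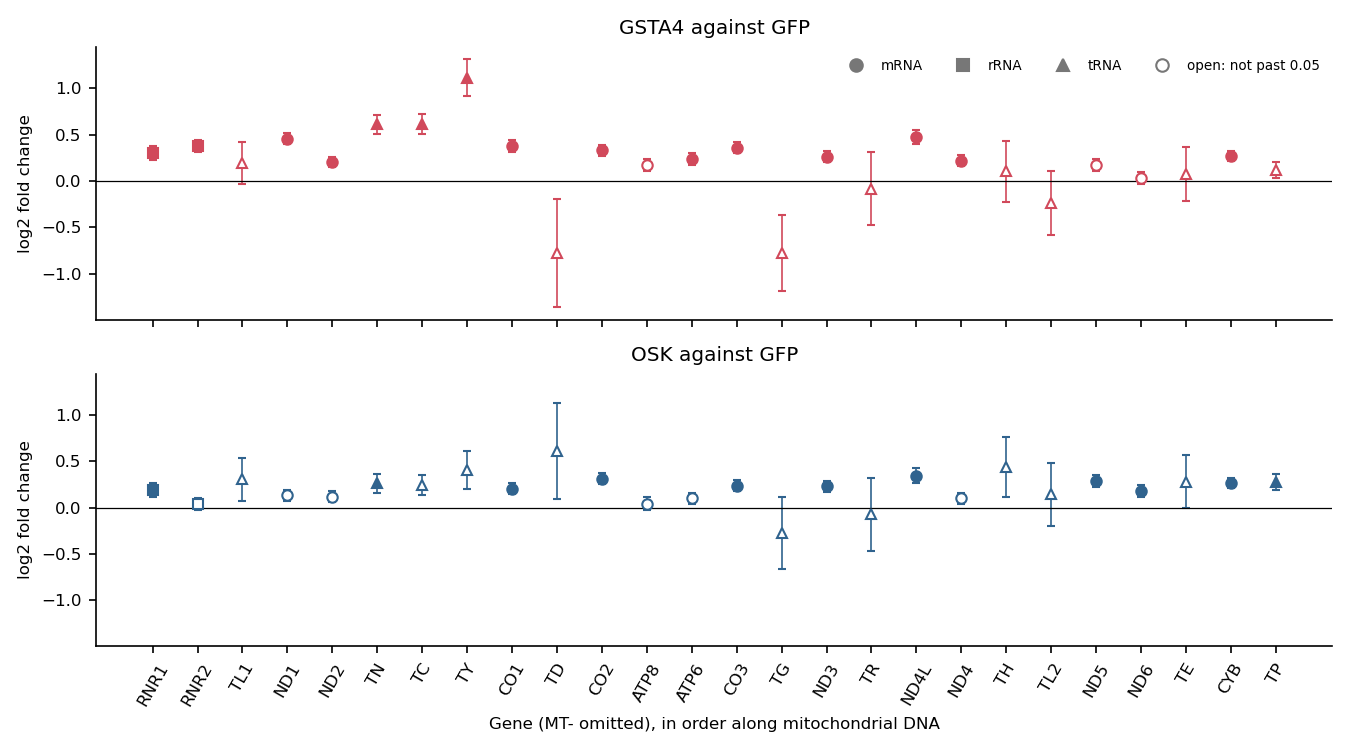
Fitted log2 fold change with its SE for each tested mitochondrially encoded gene against GFP, in order along mitochondrial DNA, for GSTA4 above and OSK below; both share the GFP libraries. Filled symbols passed an adjusted p of 0.05, and all filled symbols lie above 0 relative to all RNA, though MT-CYB, MT-ND2, MT-ND3, MT-ND4 and MT-ATP6 (GSTA4) and MT-ND6 and MT-RNR1 (OSK) fall below 0 when scaled to mitochondrial mRNA reads.

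OSK was also compared directly with GSTA4. Of the 26 genes, 6 were lower in OSK and 1 was higher, where 23.8% of all genes were lower and 24.1% higher. Libraries did not overlap for 12 of the 26, against 58.0% of all genes. These counts were near or under the shares of all genes. The lower genes were MT-RNR2 (log2 -0.34 ± 0.06, adjusted p = 0.000159), MT-ND1 (-0.32 ± 0.06, adjusted p = 0.000118), MT-CO1 (-0.17 ± 0.06, adjusted p = 0.0356) and the tRNAs MT-TN, MT-TC and MT-TY. For MT-CYB the interval of the difference ran from -0.12 to 0.12, and for MT-CO2 from -0.14 to 0.10. MT-TD, the aspartate tRNA, was the gene called higher, on counts so low that its libraries overlapped (0.254, 0.225 and 0.962 CPM in GSTA4 and 1.85, 1.20 and 0.773 in OSK). Without OSK replicate 1 the count was 4, with MT-CO1 (adjusted p = 0.166), MT-TN (0.0678) and MT-TD (0.208) no longer called. MT-CO1 was also lost without GSTA4 replicate 2 (0.103) or 3 (0.096) or OSK replicate 2 (0.0611), and MT-TD in 8 of the 12 fits that left out a library (0.0504 to 0.208). With library size alone the count was 12, all lower in OSK, and 42.5% of all calls in that comparison were rises against 50.3% in the main test.

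GFP against WT compared a line carrying a reporter with the cells labelled WT. Only 5 of the 26 genes were called, 3 higher and 2 lower in GFP, where 11.0% of all genes rose and 11.2% fell. Without GFP replicate 1 the counts were again 3 and 2, where 9.9% of all genes rose and 9.1% fell. With all libraries kept, 8 of the 26 did not overlap, against 34.6% of all genes. The 2 complex V mRNAs rose together. MT-ATP6 was at 4239, 4334 and 4275 CPM in WT and 5388, 5722 and 5107 in GFP, and MT-ATP8 at 75.1, 84.8 and 82.3 CPM in WT and 101, 113 and 109 in GFP. No library overlapped in either gene, and the rises were 0.34 ± 0.06 (adjusted p = 0.000624) and 0.42 ± 0.07 (adjusted p = 0.00024) on the log2 scale. MT-RNR2 rose by 0.20 ± 0.06 (adjusted p = 0.0271), a call lost in 3 of the fits that left out a library (WT replicate 1, adjusted p = 0.0819, WT replicate 3, 0.0506, and GFP replicate 2, 0.0856). MT-ND4L fell by 0.32 ± 0.08 (adjusted p = 0.00585), and MT-TP by 0.71 ± 0.08 (adjusted p = 5.84e-06).

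Against WT, both other lines shared the complex V rise and the MT-TP fall. GSTA4 had 14 genes higher and 1 lower than WT, where 19.7% of all genes rose and 19.0% fell, and OSK had 15 higher and 1 lower, where 22.7% rose and 22.7% fell. MT-ATP6 was higher than WT by 0.57 ± 0.06 in GSTA4 and 0.44 ± 0.06 in OSK, and MT-ATP8 by 0.59 ± 0.07 and 0.46 ± 0.07. The gene called lower was MT-TP in both, by -0.60 ± 0.08 and -0.44 ± 0.08. These comparisons share the WT libraries, and how the WT cells were cultured was not given in the sources used here.

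Scaling to the reads of the 13 mitochondrial mRNAs describes the make-up of the mitochondrial RNA apart from its total. On that scale the median of all genes moved by -0.29 (log2) for GSTA4 against GFP and by -0.20 for OSK against GFP, and the share of all calls that were rises went from 50.1% to 7.49%, from 50.4% to 24.2%, from 49.5% to 37% (GFP against WT) and from 50.3% to 61.3% (OSK against GSTA4). For GSTA4 against GFP, 7 of the 26 genes were called, where 49.1% of all genes were: MT-ND1 (0.16), MT-ND4L (0.18), MT-TN, MT-TC and MT-TY were higher, and MT-ND6 (-0.26, adjusted p = 0.00132) and MT-TG, the glycine tRNA (-1.07), were lower. For OSK against GFP the call was MT-RNR2 alone (-0.16, adjusted p = 0.024), where 51.0% of all genes were called. For GFP against WT, MT-ATP6 (0.28) and MT-ATP8 (0.37) were higher and MT-ND4L (-0.37) and MT-TP (-0.76) lower, where 22.8% were called. For OSK against GSTA4, 9 genes were called, where 47.9% of all genes were: MT-ND5 (0.21), MT-ND6 (0.23), MT-TD and MT-TP higher, and MT-ND1, MT-RNR2, MT-TN, MT-TC and MT-TY lower.

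The same shifts can be read as shares of the mitochondrial mRNA pool. MT-ATP6 made up 7.97%, 8.11% and 7.91% of it in the WT libraries, 9.99%, 9.88% and 9.35% in GFP, 9.15%, 9.38% and 9.57% in GSTA4, and 9.25%, 9.15% and 8.85% in OSK, so that WT was below every other library. MT-ND6 made up 4.08% ± 0.0786 in GFP, 3.41% ± 0.0909 in GSTA4 and 4.01% ± 0.243 in OSK, and GSTA4 was the low group. Reads antisense to MT-ND6 cannot be told from its own here. MT-ND1 made up 4.47%, 4.61% and 4.67% in GSTA4, above 4.09% ± 0.0997 in GFP and 3.90% ± 0.0729 in OSK. MT-CO1 alone made up 28.2% ± 0.647 of the pool in WT and 31.0% ± 0.0932 in GSTA4.

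**Figure D4:**
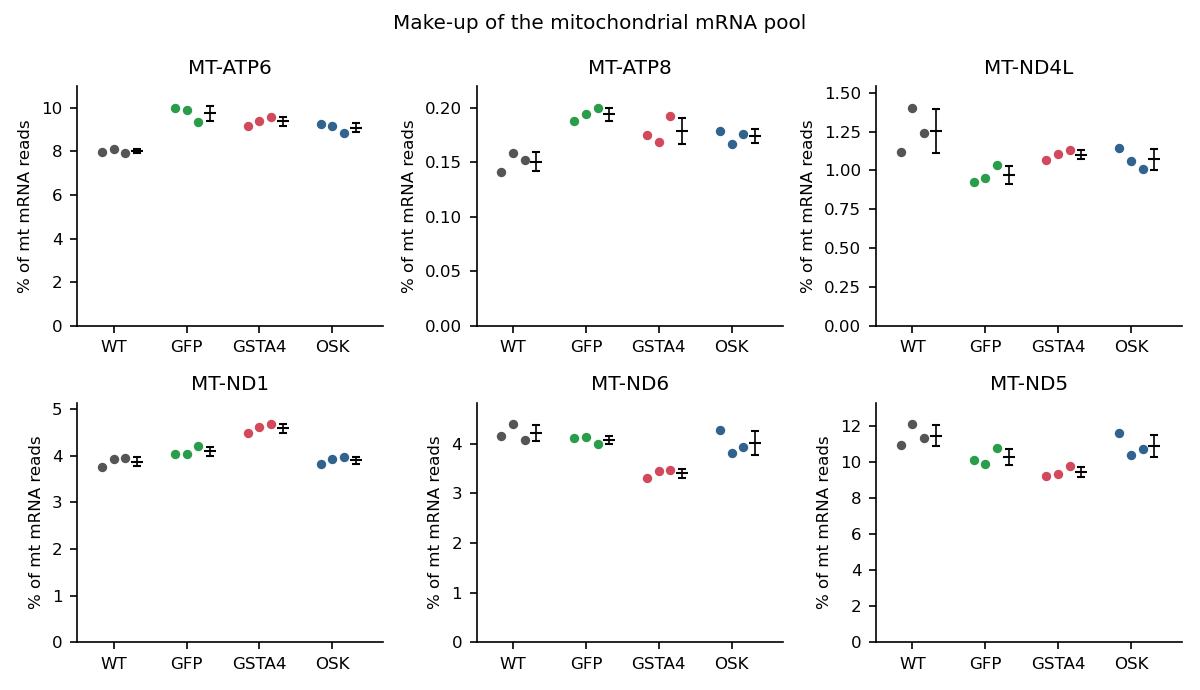
Percent of the reads on the 13 mitochondrial mRNAs taken by 6 of them; points are libraries, and the bar beside each group is the mean with the SD. WT lies lowest for MT-ATP6 (7.91% to 8.11%) and MT-ATP8, GFP lowest on average for MT-ND4L, where it overlaps OSK, and GSTA4 lowest for MT-ND6.

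Ratios between nearby genes on the map do not depend on scaling, and 6 were formed. Groups whose libraries did not overlap are named for each, without a share over other pairs of genes to set beside them. No test was run on these ratios. Counts of MT-ND4L were 7.74%, 7.96% and 8.90% of those of MT-ND4 in GFP, and 9.31% or more in every library of the other groups, so GFP was apart from all of them. MT-RNR1 counts were 9.96%, 10.1% and 9.88% of those of MT-RNR2 in OSK, above every library of GSTA4 (8.50% ± 0.135), GFP (8.97% ± 0.956) and WT (9.01% ± 0.632). MT-ND6 counts were 39.7% ± 2.40 of those of MT-ND5 in GFP, above GSTA4 (36.0% ± 0.725) and OSK (36.7% ± 0.133). These genes lie on opposite strands, and the kit is not described as marking strand. Reads antisense to MT-ND6 may thus be among its counts. MT-ND1 counts were 37.3% ± 0.704 of those of MT-RNR2 in GFP, below GSTA4 (39.4% ± 0.466) and OSK (39.9% ± 0.849) and overlapping WT. MT-TN counts were 173% ± 6.45 of those of MT-TC in WT, above GSTA4 (154% ± 3.55), with no other pair of groups apart. The ratio of MT-ATP8 to MT-ATP6 overlapped between all groups, at 1.89% to 2.00% on average.

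The kind of annotated gene end did not follow the calls in 1 way. All 6 mRNA genes with a partial stop codon rose in GSTA4 against GFP, with 4 of the 7 that have a whole one, where 14.7% of all genes rose. In OSK against GFP the counts were 3 of 6 and 5 of 7, where 23.1% of all genes rose. MT-ATP6 was placed with the whole ones by its annotated end, whose last base is also the first of MT-CO3. This grouping was made after the values were seen, and no test was run on it.

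The tRNAs carry amino acids to the mitochondrial ribosome, and mature tRNAs have no poly(A) tail, so a tRNA line in these libraries does not measure the mature tRNA. The 4 that differed among the groups all lie on the minus strand. MT-TN, MT-TC and MT-TY, for asparagine, cysteine and tyrosine, lie next to each other between MT-ND2 and MT-CO1 (MT-TC and MT-TY share 1 base), and the gap of 31 bases between MT-TN and MT-TC is the known site of the light-strand replication origin. MT-TP, for proline, lies beside the noncoding control region and is the first gene on the transcript of its strand. Their gene sequences follow with the anticodon in capitals, for chrM:5657-5729, chrM:5761-5826, chrM:5826-5891 and chrM:15956-16023, all on the minus strand.
MT-TN: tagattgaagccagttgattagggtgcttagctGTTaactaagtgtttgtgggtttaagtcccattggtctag
MT-TC: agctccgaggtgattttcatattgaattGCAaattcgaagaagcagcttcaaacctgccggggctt
MT-TY: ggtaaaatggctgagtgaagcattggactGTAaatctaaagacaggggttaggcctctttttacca
MT-TP: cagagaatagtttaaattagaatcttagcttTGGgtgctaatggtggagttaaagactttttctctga

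MT-TY had the largest relative rise of any tested mitochondrially encoded gene in GSTA4. It was at 5.47, 5.01 and 3.39 CPM in GFP, 9.71, 11.6 and 8.66 in GSTA4, 5.90, 6.20 and 6.18 in OSK and 3.04, 2.93 and 4.18 in WT. GSTA4 was above all other libraries, and the rise over GFP was 116% (log2 1.11 ± 0.20, adjusted p = 0.000201). In OSK the difference from GFP was 0.40 ± 0.20 (adjusted p = 0.113), and OSK was lower than GSTA4 by -0.71 ± 0.19 (adjusted p = 0.00388).

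Its neighbours MT-TN and MT-TC rose less in GSTA4, by amounts like each other. MT-TN was at 40.9, 46.5 and 49.5 CPM in GFP, 62.0, 75.8 and 72.0 in GSTA4, 48.0, 59.8 and 56.6 in OSK and 42.8, 51.8 and 53.6 in WT. MT-TC was at 26.0, 35.4 and 27.7 CPM in GFP, 40.9, 48.1 and 47.5 in GSTA4, 35.2, 36.0 and 34.1 in OSK and 25.9, 29.6 and 30.2 in WT. For both tRNAs the GSTA4 libraries were above all others. Both rose by 0.61 ± 0.10 over GFP (adjusted p = 0.00011 and 0.000128). In OSK, MT-TN rose by 0.26 ± 0.10 (adjusted p = 0.0422), without passing against WT (0.15), and MT-TC differed by 0.24 ± 0.11 (adjusted p = 0.0654).

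MT-TP followed another pattern, with WT as the high group. It was at 84.0, 72.8 and 68.4 CPM in WT, 45.4, 43.6 and 48.5 in GFP, 50.5, 47.2 and 51.3 in GSTA4 and 60.8, 53.2 and 52.5 in OSK. Every WT library was above all others, and GFP overlapped GSTA4 but not OSK. MT-TP fell by 38.9% from WT to GFP. It was 21.1% higher in OSK than in GFP (log2 0.28 ± 0.08, adjusted p = 0.0113), a direction that turned with WT as the control, and differed by 0.12 ± 0.09 between GSTA4 and GFP (adjusted p = 0.336).

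**Figure D5:**
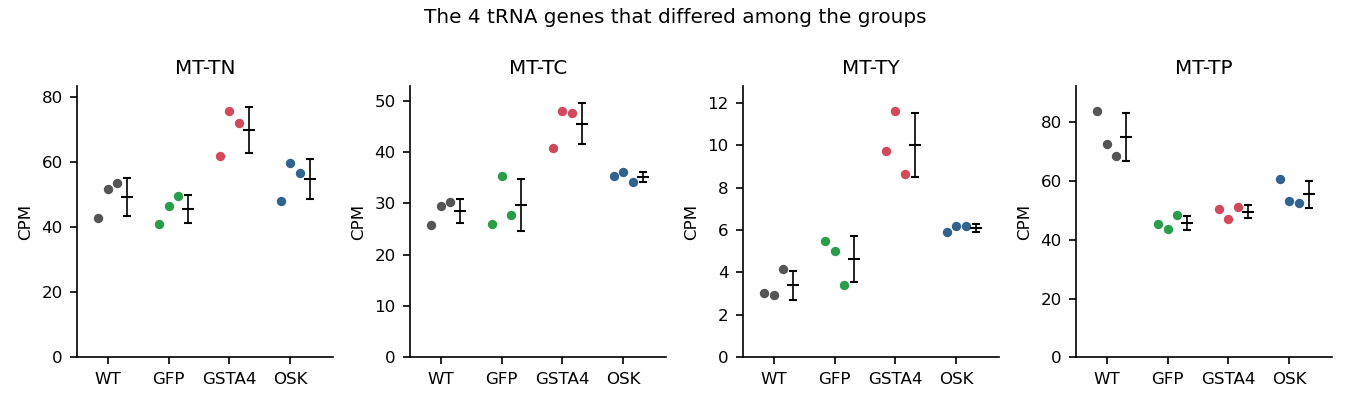
Level in CPM after TMM scaling of the 4 tRNA genes with a difference among the groups; points are libraries, and the bar beside each group is the mean with the SD. GSTA4 lies highest for MT-TN, MT-TC and MT-TY (8.66 to 11.6 CPM for the last), and WT lies highest for MT-TP (68.4 to 84.0 CPM).

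Of the other 7 tested tRNAs (MT-TL1, MT-TD, MT-TG, MT-TR, MT-TH, MT-TL2 and MT-TE), none passed against GFP in either line. Their levels were low, from a mean of 5.49 CPM for MT-TE in OSK down to 0.435 CPM for MT-TD in WT. Intervals were wide: for MT-TL1, the leucine tRNA beside MT-RNR2, the log2 difference between GSTA4 and GFP lay between -0.29 and 0.67. The SEs of the 7 ran from 0.23 to 0.58 in that comparison.

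Nuclear copies of mitochondrial genes could take reads from the originals, or lose reads to them. The table held 415 such lines, of which 17 were tested, and together they held 1.03% to 1.15% as many reads as the 37 genes. Against GFP, 8 of the 17 rose and none fell in GSTA4, and 9 rose and 1 fell in OSK, where 14.7% and 23.1% of all genes rose and 14.6% and 22.8% fell. The counts were 7 and 0, and 6 and 2, of 23 copies tested without GFP replicate 1. In that fit 30.4% and 26.1% of the copies rose, where 10.9% and 20.6% of all genes rose. The shares that fell were 0.0% and 8.7% of the copies, and 11.7% and 20.4% of all genes. The 3 with the highest mean were MTATP6P1, which matched MT-ATP6 at 98.5% of its aligned bases, MTCO1P12, which matched MT-CO1 at 98.7%, and MTND4P12, which matched MT-ND4 at 95.8%. The CPM of MTATP6P1 were 221 ± 7.02 (WT), 262 ± 26.9 (GFP), 319 ± 15.4 (GSTA4) and 323 ± 16.1 (OSK). MTCO1P12 rose by 0.51 ± 0.07 in GSTA4 (adjusted p = 6.86e-06) and 0.32 ± 0.07 in OSK (adjusted p = 0.000549), and MTND4P12 by 0.57 ± 0.09 and 0.45 ± 0.09. The assignment of reads is uncertain between copy and original, since the handling of reads that match several places was not given in the sources used here.

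Nuclear genes of the respiratory chain that passed the test were nearly all higher. Of 75 listed subunits of complexes I, III, IV and V, 32 rose and none fell in GSTA4 against GFP, and 33 rose and 1 fell in OSK against GFP, against the shares of 14.7% and 23.1% of all genes that rose. The medians were 0.22 and 0.19 on the log2 scale. Without GFP replicate 1 the counts were 21 and 0, and 27 and 1, where 10.9% and 20.6% of all genes rose. In GSTA4 the risers included UQCRFS1, the iron-sulphur protein of complex III (49.3 ± 1.14 CPM in GFP, 74.2 ± 2.79 in GSTA4, log2 0.59 ± 0.07, adjusted p = 1.3e-06), ATP5MC2, a gene for the c ring of the ATP synthase (0.50 ± 0.07), and COX7C, a small subunit of complex IV (0.39 ± 0.07). In OSK they included UQCRC1, a core protein of complex III (0.48 ± 0.07, adjusted p = 8.16e-06), and the complex IV subunits COX5B (0.50 ± 0.08) and COX4I1 (0.36 ± 0.06). By complex, 9 of 18 complex V subunits rose in GSTA4 and 3 of 18 in OSK, the latter a share under the 23.1% of all genes. In OSK, 8 of the 18 were lower than in GSTA4, where 23.8% of all genes were lower. For complex IV, 6 of 11 rose in GSTA4 and 9 of 11 in OSK. The counts of rises against GFP were 7 and 1 for complex V and 4 and 7 for complex IV without GFP replicate 1. Several of these genes have processed pseudogenes that may share reads.

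Genes that transcribe and process mitochondrial RNA were called at a share under that of all genes in GSTA4 and near it in OSK, with no test of that difference. Of 49 listed, 3 rose and 2 fell in GSTA4 against GFP, where 14.7% of all genes rose and 14.6% fell, and 13 rose and 8 fell in OSK, where 23.1% rose and 22.8% fell. The medians were 0.02 and -0.01. Without GFP replicate 1 these counts were 1 and 2, and 7 and 9. In OSK that was 14.3% rising and 18.4% falling, where 20.6% and 20.4% of all genes did, so the rises were then under the share of all genes. In GSTA4 it was 2.0% and 4.1%, where 10.9% and 11.7% of all genes did. In GSTA4, MTERF3, a negative regulator of mitochondrial transcription, fell from 12.9 ± 0.728 to 7.98 ± 1.45 CPM (log2 -0.68 ± 0.15, adjusted p = 0.00189). PPRC1, a coactivator of nuclear genes for mitochondrial proteins, fell by 0.34 ± 0.08, and POLRMT, the mitochondrial RNA polymerase, rose by 0.31 ± 0.08 (adjusted p = 0.00599), without passing against WT (0.08). In OSK, ELAC2, which cuts the 3′ side of tRNAs in the precursor, rose by 0.45 ± 0.07 (adjusted p = 3.87e-05), and ESRRA, a nuclear receptor for genes of oxidative metabolism, rose by 0.60 ± 0.10. PPARGC1A, the coactivator PGC-1alpha, fell from 29.2 ± 2.46 to 16.9 ± 0.806 CPM (log2 -0.79 ± 0.13, adjusted p = 5.33e-05).

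Genes that maintain mitochondrial DNA, and general markers of mitochondrial mass, were counted as well, since DNA copy number was not measured. Of 24 maintenance genes, 4 rose and 2 fell in GSTA4 against GFP, and 5 rose and 3 fell in OSK, shares near or under those of all genes (14.7% and 14.6%, and 23.1% and 22.8%). Without GFP replicate 1 these counts were 4 and 1, and 5 and 3. In that fit 16.7% and 20.8% of the list rose, where 10.9% and 20.6% of all genes rose. The shares that fell were 4.2% and 12.5% of the list, and 11.7% and 20.4% of all genes. SLC25A36, a carrier of pyrimidine nucleotides into the organelle, was at 118 ± 4.40 CPM in GFP, 281 ± 9.67 in GSTA4, 91.2 ± 2.84 in OSK and 72.8 ± 4.07 in WT. It rose by 1.25 ± 0.06 in GSTA4 (adjusted p = 1.66e-12) and fell by 0.37 ± 0.06 in OSK (adjusted p = 3.52e-05), a fall that became a rise of 0.32 with WT as the control. In GSTA4, SSBP1, the single-strand DNA-binding protein of the organelle, rose by 0.37 ± 0.08, and RRM2B, a ribonucleotide reductase subunit, by 0.29 ± 0.07, which was not called against WT (0.03). In OSK, TK2, the mitochondrial thymidine kinase, rose by 0.52 ± 0.09, as did the nucleoid protein gene ATAD3B (0.49 ± 0.09), which has a near-identical neighbour.

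Of 19 tested markers of mitochondrial mass, 9 rose and none fell in GSTA4 against GFP, and 8 rose and 3 fell in OSK, where 14.7% and 23.1% of all genes rose and 14.6% and 22.8% fell. Without GFP replicate 1 these counts were 4 and 0, and 4 and 3, so that 21.1% of the list rose in each, where 10.9% and 20.6% of all genes did. In GSTA4 the import receptor TOMM20 (0.30 ± 0.07) and the inner membrane scaffold PHB2 (0.30 ± 0.07) rose. In OSK, IDH3A, a subunit of isocitrate dehydrogenase in the citric acid cycle, rose by 0.59 ± 0.08 (adjusted p = 6.92e-06), while TOMM22, the partner of TOMM20, fell by 0.31 ± 0.08 (adjusted p = 0.00396).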

How the data were processed

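The authors deposited 1 table of raw read counts per gene, in whole numbers whose totals differ between libraries. STAR 2.7.1a and featureCounts 1.6.2 are named per the submitters' processing notes, with the builds GRCh38 (hg38) and GRCm38 (mm10) and no role for any of them. The annotation release and the strand setting were not given in the sources used here. Per the labels' protocols, oligo(dT) beads took up the RNA and a NEBNext Ultra II kit was used. Lines with no gene name (20014 of 60605) were left out, and 12 libraries of 12526826 to 16940870 reads remained.

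The whole table was fitted with edgeR 4.0.16 (limma 3.58.1, R 4.3.3): TMM scaling, filterByExpr with the groups, quasi-likelihood tests in 1 fit of 12 libraries, a mean per group, and Benjamini-Hochberg adjustment over 15179 genes with a threshold of 0.05. P-values are two-sided. CPM use TMM library sizes, and shares use reads on named lines and have no test. Intervals are 95%. No molecular identifiers are stated, so limits from counts of 0 cover counting error only. The members and gene lists were chosen with earlier results of these data known. Named were all MT- lines, up to 3 genes per nuclear list and comparison with the lowest adjusted p and no overlap of libraries, and the 3 nuclear copies with the highest mean; a gene that this rule named is not reported here. The fit was tested on simulated data. Alternatives, with DESeq2 1.42.0 among them, are given in the closing section. The replicate numbers of the labels were not treated as pairs.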

Additional observations from a re-analysis of the deposited data

How the results depend on the processing

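Alternatives were RLE scaling, library size alone, MT- reads left out of the scaling, scaling to mitochondrial mRNA reads, tests without the filter, a minimum mean of 1 CPM, unnamed lines kept, DESeq2, the 6 libraries compared, WT as the control, the replicate block, and each library left out. Scaled to mitochondrial mRNA reads, 7 genes were called for GSTA4 against GFP, against 15, and 1 for OSK against GFP, against 11. Library size alone gave 7 for OSK against GFP, and for OSK against GSTA4 12, against 7. The fit of the 6 libraries compared gave 13 for OSK against GSTA4. On the mitochondrial mRNA scale, of the genes called in the reported test or on that scale, these reversed for GSTA4 against GFP: MT-ND2 (-0.0866), MT-ATP6 (-0.0563), MT-ND3 (-0.0275), MT-ND4 (-0.0707), MT-ND6 (-0.26), MT-CYB (-0.0227) and RRM2B (-0.0029), and for OSK against GFP: MT-RNR1 (-0.0099), MT-RNR2 (-0.16) and MT-ND6 (-0.0251). Genes called in neither turned below 0 as well, among them MT-ND5 and MT-ATP8 for GSTA4 and MT-ND1, MT-ND2, MT-ND4, MT-ATP6 and MT-ATP8 for OSK. That scale removes the rise common to these genes by construction. With WT as the control, MT-TP reversed in both comparisons (-0.60 for GSTA4 and -0.44 for OSK) and SLC25A36 for OSK (0.32), and the cause was not tested.

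With each library left out in turn, the counts of mitochondrially encoded genes called were 15 to 18 for GSTA4 against GFP, 8 to 13 for OSK against GFP, 4 to 6 for GFP against WT, 4 to 10 for OSK against GSTA4 and 19 to 20 for any difference. The fewest for OSK against GSTA4 came without OSK replicate 1. Genes of the nuclear lists called were 33 to 58 for GSTA4 against GFP (52 in all libraries, 33 without GFP replicate 1), 59 to 77 for OSK against GFP, 20 to 28 for GFP against WT and 45 to 62 for OSK against GSTA4. The share of reads on the 37 genes was 5.99% in WT over all lines, and relative to reads outside these genes 6.41%, 6.74%, 8.38% and 7.35% for WT, GFP, GSTA4 and OSK. With each library left out, the shares were 6.002% to 6.04%, 6.21% to 6.45%, 7.69% to 7.82% and 6.83% to 6.87% in that order.

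The replicate numbers were not taken to pair the libraries: 3 of 18 same-numbered pairs of libraries had a correlation of deviations over 0.1 (from -0.03 to 0.18), and 17 of 36 comparisons put a library closest to its own number. The replicate block gave 17 genes for GSTA4 against GFP, 13 for OSK against GFP, 6 for GFP against WT, 9 for OSK against GSTA4 and 21 for any difference. Low counts limited the precision of 7 tRNAs, with SEs of 0.23 to 0.58 (log2) for GSTA4 against GFP.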
